A study of Mus musculus with 6 samples.

Results

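The genes of the translation initiation factors were examined in total RNA of 4T1 cells with and without METTL7A1. Members were taken by symbol alone: gene symbols that begin with Eif and a digit from 1 to 6, without the 4 eIF2 kinases, 7 pseudogenes and Eif2s3y. This left 51 of the 48587 genes listed in the count table, namely 3 genes of eIF2, 5 of eIF2B, 14 of eIF3, 16 of the eIF4 group and 13 others. Not all members are subunits of initiation factors. Eif4ebp1, Eif4ebp2, Eif4ebp3 and Eif4enif1 encode regulators that bind eIF4E, and Eif4a3 the helicase of the exon junction complex. Eif2c5 carries the former symbol of the Argonaute family, is annotated as a long non-coding RNA and had at most 1 count in any library. 4T1 is a mouse mammary carcinoma line. The METTL7A1 group comprised 3 libraries of cells stably transfected with Mettl7a1 cDNA in pBICEP-CMV-2, a plasmid with a CMV promoter, and the mock group 3 libraries of cells carrying the empty vector. Both were kept in 350 μg/ml G418, the selection drug, and each group is described as biological triplicates. Whether the stable cells were pools or single clones is not given in the sources used here, so METTL7A1 and other differences between the transfected lines cannot be told apart.

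Initiation begins when eIF2, bound to GTP, brings the initiator tRNA to the small ribosomal subunit, and eIF2B recharges eIF2 with GTP after each round. Phosphorylation of the alpha subunit of eIF2 turns it into an inhibitor of eIF2B, the common step of the integrated stress response. eIF3 is a scaffold on the small subunit, and eIF4F (the cap-binding protein eIF4E, the scaffold eIF4G and the helicase eIF4A) recruits the mRNA. The 4E-binding proteins compete with eIF4G for eIF4E. The study examined translation factors together with METTL7A1 protein, and the comparison here asks whether the mRNAs of these and the other factors differed in abundance.

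Total counts per library lay between 18386780 and 28459338, and 13166 genes reached 1 cpm (the count scaled to library size) in 3 or more of them. For Mettl7a1 itself, METTL7A1 libraries held 6355 to 11358 counts and mock libraries 29 or 30, so each library followed its label. The epithelial markers Krt8, Krt18, Epcam and Cdh1 summed to between 1365 and 1675 cpm in mock and between 1410 and 1672 cpm in METTL7A1 cells. Among the reported markers of other cell types, Pdgfra alone passed the filter. Those of leukocytes summed to at most 0.324 cpm and those of endothelium to at most 0.892 cpm, with Cd3e at 0 counts, while those of fibroblasts, nearly all from Pdgfra, summed to between 17.5 and 19.8 cpm in mock and between 23.8 and 26.7 cpm in METTL7A1 cells. AY036118, a gene of the ribosomal repeat, ranged from 8952 to 145685 cpm in mock and from 4974 to 44843 cpm in METTL7A1 libraries. In a fit without the 20 most abundant genes, AY036118 among them, 7 initiation factors were higher and 24 lower (edgeR adjusted p under 0.05). These numbers were the same with all genes kept, and the part of AY036118 was not tested otherwise.

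Of the 51 genes, 48 passed the filter. Eif4e1b and Eif4e3 had 0 counts in every library, so that levels under 0.102 cpm in the deepest and 0.164 cpm in the shallowest case could have been missed (3 counts, counting error only), and Eif2c5 was also under the filter. Of the 48 tested genes 31 differed at an adjusted p under 0.05 (edgeR quasi-likelihood test, Benjamini-Hochberg over all genes), 7 of them higher and 24 lower in METTL7A1 cells. Among all tested genes 42.1% were called, 21.1% higher and 21% lower. The median log2 fold change of the 48 was -0.27, against -0.03 over all tested genes, and 36 of the 48 had a negative value. Of the 48 genes 10 were called with a log2 fold change of at least 0.4 in size, against 26.4% of all tested genes. The differences were small: the median absolute value was 0.28, against 0.25 over all tested genes, and no initiation factor passed the thresholds of the study (adjusted p under 0.01 and a log2 fold change over 1.5), which 2.48% of all tested genes did. The METTL7A1 libraries lay entirely above the mock libraries for 7 genes and entirely below for 25, while among all tested genes 51.6% had groups without overlap, 25.9% with METTL7A1 above and 25.6% below. In bulk RNA, less RNA of a gene per cell and fewer cells that express it cannot be told apart.

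Relative to the mock mean, the median of the 48 genes was -0.25, -0.25 and -0.15 on the log2 scale in METTL7A1 replicates 1 to 3 and 0.00, 0.09 and -0.10 in mock replicates 1 to 3. The mock libraries themselves thus spread over much of the distance between the groups. The number of called genes depended on single libraries, being 4 higher and 11 lower without METTL7A1 replicate 2, 5 higher and 15 lower without mock replicate 1, 7 higher and 14 lower without mock replicate 2. Of the 31 calls 14 held whichever library was left out. Each gene was also tested relative to its chromosomal surroundings, with the median log2 fold change of its 40 nearest neighbours (average abundance over 2 in log2 cpm, initiation factors left out) as an offset, here called the neighbour offset. With it 17 of the 48 were called, 3 higher and 14 lower, against 31.4% of all tested genes.

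**Figure D1:**
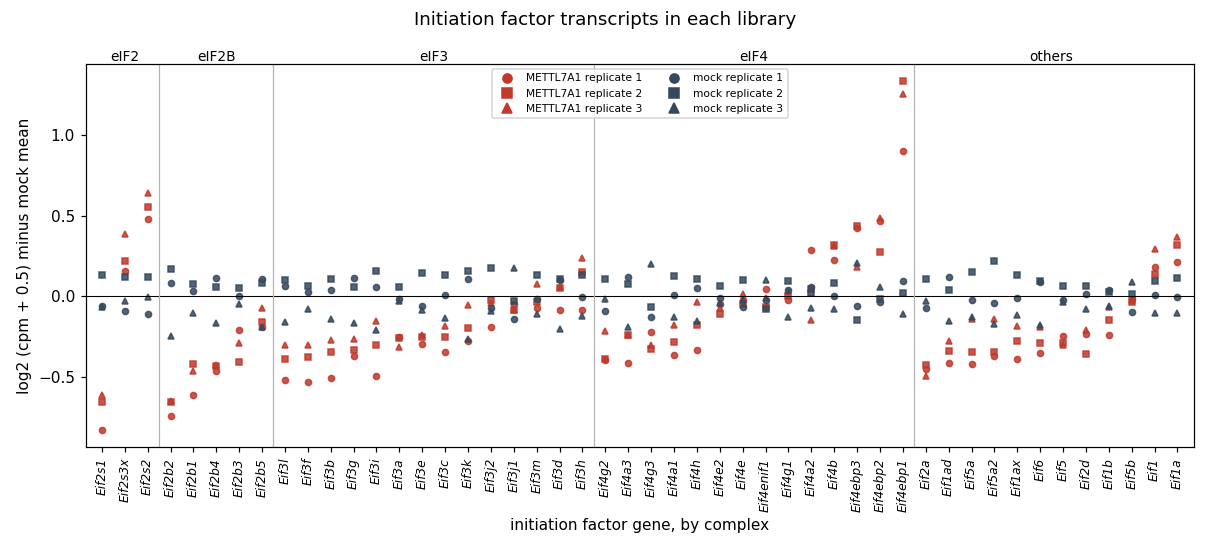
Log2 (cpm + 0.5) of 48 initiation factor genes in each of the 6 libraries, minus the mean of the 3 mock libraries, grouped by complex and ordered by fold change. Most METTL7A1 points (red) of eIF2B and eIF3 lie below the mock points (dark), those of Eif2s2 and Eif4ebp1 lie above them, and those of Eif4e and Eif4g1 lie among them.

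Promoter sequences of RefSeq (build GRCm38.p6, 250 bases before to 50 after the start site) were matched for 39 of the 51 genes, with 51 windows in all. The core of the amino acid response element bound by ATF4, TGATGCAA, was in none of the windows of these 39 genes on either strand, while 0.895% of 32851 promoters held it. Eif4ebp1, the gene with the largest change, was among the 12 genes without a matched window and was not searched. The E-box CACGTG, the site of MYC and related factors, was in 12 of the 51 windows and in 10 of the 39 genes, against 7.15% of all promoters and 8.09% of all genes with a promoter. These shares cover 27025 genes, including genes under the filter here, and were not matched for base composition. The motif reads the same on both strands, and the windows of a gene can overlap, so a box of Eif5a was counted more than once. Of these 10 genes, Eif3a, Eif3f, Eif4a1 and Eif5a were called lower and the other 6 were not called. Among all 48 tested initiation factors 24 were called lower, and among all tested genes 21%. The stretches below are shown because they place the same motif before a start site of genes that fell (Eif3f, Eif4a1, Eif5a) and of genes that were not called (Eif4e, Eif4g1). Capitals mark the E-box, and each stretch reads 5′ to 3′ on the strand of the gene.
Eif3f, chr7:108934320-108934379, plus strand: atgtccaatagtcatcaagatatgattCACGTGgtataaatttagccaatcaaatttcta
Eif4a1, chr11:69672580-69672639, minus strand: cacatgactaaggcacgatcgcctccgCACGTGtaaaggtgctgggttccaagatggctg
Eif5a, chr11:69921428-69921487, minus strand: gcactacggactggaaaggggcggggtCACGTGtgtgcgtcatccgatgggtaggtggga
Eif4e, chr3:138527177-138527236, plus strand: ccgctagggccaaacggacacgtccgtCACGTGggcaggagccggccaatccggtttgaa
Eif4g1, chr16:20672646-20672705, plus strand: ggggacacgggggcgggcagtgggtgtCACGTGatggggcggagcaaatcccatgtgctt
The motif began 68 bases before the start site of its window in Eif3f, 189 in Eif4a1, 74 in Eif5a, 64 in Eif4e and 54 in Eif4g1. In Eif5a and Eif4e this start site is an alternative one inside the span listed for the gene. Their windows at the listed 5′ end (chr11:69921909-69922208 and chr3:138525941-138526240) held no E-box. Which start sites are used in these cells was not tested. A match is a description of the letters and not of binding.

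Of the 3 subunits of eIF2, the alpha transcript was called lower and the beta and gamma transcripts higher, but with the neighbour offset the call of the beta transcript alone stood. Eif2s1, the alpha subunit that carries the phosphorylation site (chromosome 12, 78861819 to 78887010), had 125, 141 and 145 cpm in METTL7A1 replicates 1 to 3 and 213, 244 and 213 cpm in mock replicates 1 to 3. Every METTL7A1 library lay well under every mock library. Eif2s1 fell by 0.70 on the log2 scale, with a standard error (SE) of 0.09 (edgeR adjusted p = 8.23e-05), or from 224 ± 17.8 to 137 ± 10.7 cpm (SD, n = 3 each). Eif2s2, the beta subunit (chromosome 2, 154871410 to 154892935), showed the opposite order, with 181, 191 and 202 cpm in METTL7A1 and 120, 141 and 129 cpm in mock libraries. It rose by 0.56 (SE 0.08, edgeR adjusted p = 0.000257). Eif2s3x, the gamma subunit that binds GTP and the initiator tRNA (X chromosome, 94188707 to 94212709), had 150, 157 and 177 cpm against 127, 147 and 132 cpm. It rose by 0.25 (SE 0.08, edgeR adjusted p = 0.0315), a call that 3 single libraries carried (METTL7A1 replicates 2 and 3 and mock replicate 1). Per kilobase of exon, Eif2s2 was 0.75 to 0.81 times Eif2s1 in the mock libraries and 1.81 to 1.93 times in the METTL7A1 libraries. The 40 neighbours of Eif2s1 had a median log2 fold change of -0.46, those of Eif2s2 0.19 and those of Eif2s3x 0.17. With the neighbour offset Eif2s1 was at -0.24 (edgeR adjusted p = 0.0512) and Eif2s3x at 0.08 (edgeR adjusted p = 0.515), neither of them called, while Eif2s2 was still higher at 0.37 (edgeR adjusted p = 0.00491).

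All 5 transcripts of eIF2B, the nucleotide exchange factor of eIF2, had negative fold changes and 4 were called lower. Of all tested genes 21% were called lower. Eif2b2, the beta subunit (chromosome 12, 85219481 to 85226628), had 22.2, 23.6 and 23.7 cpm in METTL7A1 replicates 1 to 3 and 39.7, 42.3 and 31.6 cpm in mock replicates 1 to 3. The difference was -0.71 on the log2 scale (SE 0.11, edgeR adjusted p = 0.000347). Like Eif2s1 it lies on chromosome 12, where its 40 neighbours had a median of -0.48, and with the neighbour offset it was at -0.23 and not called. Eif2b1, the alpha subunit (chromosome 5, 124570213 to 124579131), had 22.7, 26.1 and 25.3 cpm against 35.9, 37.0 and 32.6 cpm. Its fall of 0.50 (SE 0.09, edgeR adjusted p = 0.000753) went with a neighbour median near 0 (-0.07). Eif2b4, the delta subunit (chromosome 5, 31187558 to 31193430), had 22.2, 22.7 and 22.8 cpm against 33.5, 32.1 and 27.5 cpm, and fell by 0.45 (SE 0.09, edgeR adjusted p = 0.00195) beside a neighbour median of -0.06. For these 3 genes no METTL7A1 library reached the lowest mock library. Eif2b3 (gamma) fell by 0.31 (SE 0.08), a call lost without METTL7A1 replicate 2, while Eif2b5, the catalytic epsilon subunit, was not called (-0.15, SE 0.09, edgeR adjusted p = 0.198) and its groups overlapped. The median of the 5 genes relative to the mock mean was -0.47, -0.42 and -0.43 in the METTL7A1 libraries and 0.08, 0.08 and -0.17 in the mock libraries.

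**Figure D2:**
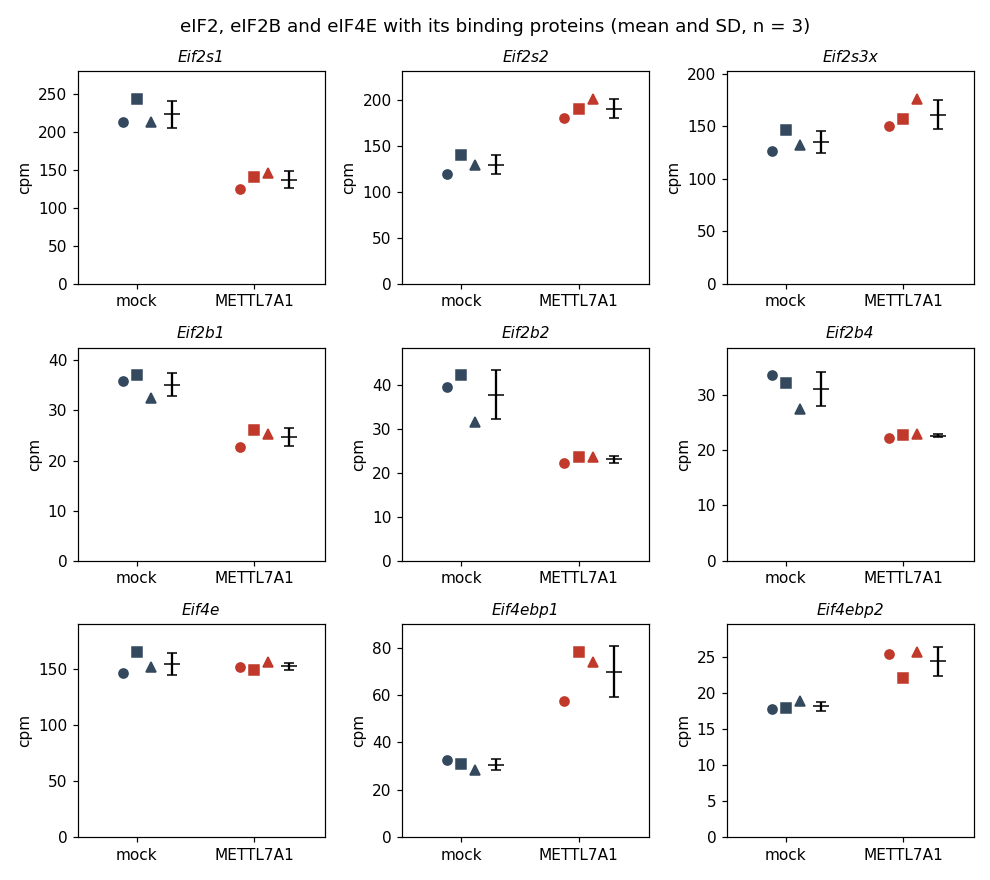
Abundance in cpm (axes from 0) of 9 genes in each mock (dark) and METTL7A1 (red) library, with circles, squares and triangles for replicates 1 to 3 and the mean ± SD (n = 3) as a bar. Eif2s1 and the eIF2B genes are lower and Eif2s2, Eif4ebp1 and Eif4ebp2 higher in all METTL7A1 libraries, while Eif4e stays at 154 ± 9.42 cpm in mock and 152 ± 3.38 cpm in METTL7A1 cells.

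Kinases, phosphatase subunits and other regulators of the phosphorylation of eIF2 were looked up as a list. Of 9 tested genes 7 were called, 5 higher and 2 lower, with a median log2 fold change of 0.32 (42.1% of all tested genes were called). With the neighbour offset 2 were called higher and 1 lower, against 31.4% of all tested genes, and without METTL7A1 replicate 2 the number called lower was 1. Among the 4 kinases, Eif2ak3, which encodes PERK, the kinase activated by endoplasmic reticulum stress, averaged 27.7 ± 2.15 cpm in METTL7A1 and 15.7 ± 0.868 cpm in mock libraries (SD of 3), a rise of 0.82 (SE 0.09, edgeR adjusted p = 4.49e-05). Eif2ak4, which encodes the amino acid sensor GCN2, rose by 0.35 (SE 0.08), Eif2ak1 (the heme-regulated kinase) fell by 0.32 (SE 0.08), and Eif2ak2, which encodes the double-stranded RNA sensor PKR, was at 0.05 (SE 0.08) and not called. Ppp1r15a, the inducible phosphatase subunit known as GADD34, rose by 0.67 (SE 0.11), and Impact, an inhibitor of GCN2 activation, by 0.49 (SE 0.07). Gcn1l1, the activator of GCN2, fell by 0.47 (SE 0.09). Of the called genes named here, Eif2ak3, Ppp1r15a and Gcn1l1 kept their calls with the neighbour offset. Eif2ak4 (0.03), Eif2ak1 (-0.003) and Impact (0.16) lost theirs.

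None of the 14 transcripts of eIF3 was called higher and 8 were called lower, with a median log2 fold change of -0.27 (21% of all tested genes were called lower). The number called lower was 4 without METTL7A1 replicate 2 or without mock replicate 2, and 5 without mock replicate 1, with the neighbour offset or with no abundance filter. Of all tested genes 13.5% were called lower with the offset. Of the 8 calls only those of Eif3b, Eif3f and Eif3l stood with the offset, and Eif3j1 and Eif3j2 were newly called there. Of the core subunits, Eif3l (chromosome 15, 79075223 to 79094400) had 245, 267 and 284 cpm in METTL7A1 replicates 1 to 3 and 367, 375 and 313 cpm in mock replicates 1 to 3. It fell by 0.41 (SE 0.09, edgeR adjusted p = 0.00445), whereas its chromosomal neighbours were higher, with a median of 0.25. Eif3f (chromosome 7, 108934417 to 108942951) had 52.9, 59.2 and 62.2 cpm against 78.2, 80.3 and 72.6 cpm, and fell by 0.40 (SE 0.08, edgeR adjusted p = 0.00176) beside a neighbour median of 0.00. In both genes the groups were separate and the call held whichever library was left out.

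Eif3a, the largest subunit, whose protein the study immunoprecipitated (chromosome 19, 60761116 to 60790693), had 869, 864 and 831 cpm in METTL7A1 and 1021, 1075 and 1012 cpm in mock libraries. The groups were separate, and the fall was 0.28 (SE 0.08, edgeR adjusted p = 0.0194), close to the median of its neighbours (-0.19). Removing a single library ended this call in 4 of 6 cases, as did the neighbour offset (-0.08). Eif3c and Eif3e, which are also core subunits, fell by 0.27 (SE 0.09) and 0.27 (SE 0.08), and the peripheral subunits Eif3b, Eif3g and Eif3i by 0.38 (SE 0.09), 0.33 (SE 0.08) and 0.32 (SE 0.11). The groups of Eif3i overlapped. Removing a single library ended the calls of Eif3c and Eif3i in 4 and that of Eif3e in 2 of 6 cases, and the neighbour offset ended these 3 calls and that of Eif3g. Not called were Eif3k (-0.18, SE 0.11), Eif3m (-0.01, SE 0.08), Eif3d (0.00, SE 0.09) and Eif3h (0.10, SE 0.09). Eif3h and Eif3d lie on chromosome 15 with Eif3e and Eif3l, so subunits on the same chromosome did not share a call. Eif3j1 and Eif3j2 were at -0.09 (SE 0.09) and -0.09 (SE 0.10); as 94% of the 31-base stretches of Eif3j2 also occur in Eif3j1, the reads of the pair cannot be assigned with certainty.

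Among the eIF4F genes the main cap-binding protein, its main scaffold and one of its helicases were flat. Eif4e (chromosome 3, 138526179 to 138559696) had 152, 149 and 156 cpm in METTL7A1 replicates 1 to 3 and 147, 165 and 151 cpm in mock replicates 1 to 3, a difference of -0.02 on the log2 scale (SE 0.07, edgeR adjusted p = 0.842). Eif4g1 (chromosome 16, 20672723 to 20692884) had 1045, 1061 and 1086 cpm against 1090, 1132 and 970.3 cpm, and its mean was 1064 cpm in both groups (0.00, SE 0.09, edgeR adjusted p = 0.998). In both genes the METTL7A1 libraries lay within the range of the mock libraries. Eif4a2, a helicase (chromosome 16, 23107444 to 23114117), varied more, with 922, 779 and 682 cpm against 785, 766 and 718 cpm (0.07, SE 0.11, edgeR adjusted p = 0.643). Its METTL7A1 replicate 1 was the highest and replicate 3 the lowest of all 6 libraries.

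Of their paralogs, Eif4a1 and Eif4g3 were called lower and Eif4e2 was not. Eif4a1, the more abundant helicase (chromosome 11, 69666936 to 69672317), had 679, 716 and 773 cpm in METTL7A1 and 878, 952 and 800 cpm in mock libraries, a fall of 0.28 (SE 0.10, edgeR adjusted p = 0.0351). It shares 25.6% of its 31-base stretches with the pseudogene Eif4a-ps4, which had at most 206 counts. Eif4g3 (chromosome 4, 137993022 to 138208508) had 69.2, 64.4 and 65.3 cpm against 73.9, 77.1 and 93.1 cpm, a fall of 0.30 (SE 0.09, edgeR adjusted p = 0.0199). Both groups were separate, but removing a single library ended the call of Eif4a1 in 4 and that of Eif4g3 in 3 of 6 cases, and the neighbour offset ended both. Per kilobase of exon, Eif4a2 made up 43.0, 37.6 and 32.8% of both helicase transcripts in METTL7A1 replicates 1 to 3 and 33.2, 30.9 and 33.2% in mock replicates 1 to 3, and these ranges overlap. Eif4e2, a cap-binding homologue that represses translation (chromosome 1, 87213914 to 87240488), had 70.1, 67.2 and 69.0 cpm against 71.9, 75.7 and 70.3 cpm. Its groups were barely separate and it was not called (-0.08, SE 0.07, edgeR adjusted p = 0.351).

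Eif4b, the cofactor that stimulates eIF4A and another protein the study immunoprecipitated (chromosome 15, 102073773 to 102097172), was called higher. It had 382, 407 and 406 cpm in METTL7A1 replicates 1 to 3 and 327, 346 and 309 cpm in mock replicates 1 to 3, so the groups were separate. The rise was 0.28 (SE 0.08, edgeR adjusted p = 0.0123). Its 40 neighbours on chromosome 15 rose by a median of 0.33, and the call was lost with the neighbour offset and without METTL7A1 replicate 2. The related cofactor Eif4h was not called (-0.18, SE 0.10). Eif4g2, a scaffold that lacks the eIF4E-binding region, and Eif4a3, the helicase of the exon junction complex, fell by 0.34 (SE 0.09) and 0.30 (SE 0.09). The call of Eif4g2 was lost without METTL7A1 replicate 2, and that of Eif4a3 without mock replicate 1 or 2 and with the neighbour offset.

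The largest change among the members was that of Eif4ebp1, which encodes 4E-BP1, the best known inhibitor of eIF4E. This gene (chromosome 8, 27260329 to 27276674) had 57.7, 78.0 and 73.8 cpm in METTL7A1 replicates 1 to 3 and 32.7, 31.1 and 28.3 cpm in mock replicates 1 to 3. The lowest METTL7A1 library was thus well over the highest mock library. Eif4ebp1 was 2.28-fold higher, or 1.19 on the log2 scale (SE 0.11, edgeR adjusted p = 1.32e-05), beside a neighbour median of 0.18. Eif4ebp2 (chromosome 10, 61432497 to 61452669) had 25.3, 22.1 and 25.6 cpm against 17.7, 17.9 and 18.9 cpm and rose by 0.42 (SE 0.09, edgeR adjusted p = 0.00328). Its neighbours on chromosome 10 rose by a median of 0.52, and with the neighbour offset Eif4ebp2 was at -0.10 and not called. Eif4ebp3 (0.36, SE 0.14, edgeR adjusted p = 0.0645) was not called, and 66.4% of its 31-base stretches also occur in AC115631.1. Eif4enif1, which carries eIF4E into the nucleus, was at -0.01 (SE 0.07). Per kilobase of exon, the 3 4E-BP transcripts together, that uncertain one included, were 1.86, 2.18 and 2.02 times Eif4e in METTL7A1 replicates 1 to 3 and 1.21, 1.04 and 1.18 times in mock replicates 1 to 3. Eif4ebp1 alone was 0.976, 1.34 and 1.22 times Eif4e against 0.573, 0.484 and 0.479 times.

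Other regulators at the cap and the poly(A) tail were taken as a list of 13 genes, of which 12 were tested and 5 called, against 42.1% of all tested genes. The 3 called higher were Pdcd4, an inhibitor of eIF4A (1.19, SE 0.12), Paip2, an inhibitor of poly(A)-binding protein (0.77, SE 0.09), and Mknk2, a kinase of eIF4E (0.71, SE 0.08). Pdcd4 rose from 5.55 ± 0.412 to 12.6 ± 0.885 cpm (SD, n = 3 each, edgeR adjusted p = 2.45e-05). The 2 called lower were Pabpc4, a poly(A)-binding protein (-0.39, SE 0.07), and Cyfip1, an eIF4E-binding partner of FMRP (-0.31, SE 0.07). The median of the list was 0.02. With the neighbour offset 3 were called higher and 1 lower, against 18% and 13.5% of all tested genes.

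Of the 12 remaining initiation factors tested 2 were called higher and 7 lower, against 21.1% and 21% of all tested genes. The number called lower was 2 without METTL7A1 replicate 2, 3 without mock replicate 1 or 2 and 4 with the neighbour offset. The number called higher was 1 with the offset and without METTL7A1 replicate 2 or 3 or mock replicate 1 or 3. Of all tested genes 18% were called higher and 13.5% lower with the offset. Eif2a, which can deliver the initiator tRNA without eIF2 (chromosome 3, 58525821 to 58557501), had 59.7, 60.7 and 58.0 cpm in METTL7A1 replicates 1 to 3 and 77.8, 88.2 and 80.1 cpm in mock replicates 1 to 3. With separate groups it fell by 0.46 (SE 0.07, edgeR adjusted p = 0.000393), and Eif2d, another such factor, fell by 0.27 (SE 0.08), a call that ended in 3 of 6 cases when a single library was removed. Eif1, which guards start codon selection (chromosome 11, 100319885 to 100322096), had 118, 115 and 127 cpm against 105, 111 and 96.9 cpm. The rise of 0.20 (SE 0.08, edgeR adjusted p = 0.049) was just past the threshold and ended in 4 of 6 cases when a single library was removed. Its paralog Eif1b (chromosome 9, 120492606 to 120495327) had 12.0, 12.9 and 13.7 cpm against 14.7, 14.6 and 13.7 cpm and was not called (-0.15, SE 0.10, edgeR adjusted p = 0.231), although its groups were barely separate. Per kilobase of exon, Eif1b made up 12.8, 13.9 and 13.4% of both transcripts in METTL7A1 and 16.9, 15.9 and 17.0% in mock libraries.

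The eIF1A genes, which act with eIF1 in scanning, were called in opposite directions, but neither call stood with the neighbour offset. Eif1a on chromosome 18 rose by 0.30 (SE 0.08, edgeR adjusted p = 0.00924) beside a neighbour median of 0.41, and Eif1ax on the X chromosome fell by 0.29 (SE 0.08, edgeR adjusted p = 0.017) beside -0.06. With the offset Eif1a was at -0.12 (edgeR adjusted p = 0.29) and Eif1ax at -0.23 (edgeR adjusted p = 0.0557), and removing a single library ended the call of Eif1ax in 3 of 6 cases. Per kilobase of exon, Eif1a made up 71.3, 71.2 and 70.5% of both transcripts in METTL7A1 replicates 1 to 3 and 62.2, 61.7 and 62.2% in mock replicates 1 to 3. Eif5, the GTPase activator of eIF2, and Eif6, which keeps the ribosomal subunits apart, fell by 0.28 (SE 0.08) and 0.28 (SE 0.09), and Eif1ad by 0.35 (SE 0.08). The call of Eif5 was lost with the neighbour offset (-0.03) and without METTL7A1 replicate 2, and that of Eif6 in 3 of 6 cases when a single library was removed. Eif5b, which joins the subunits, was at -0.03 (SE 0.07). Eif5a, a factor that also acts in elongation (chromosome 11, 69916714 to 69921958), had 448, 470 and 543 cpm against 590, 666 and 548 cpm. Its fall of 0.30 (SE 0.10, edgeR adjusted p = 0.0313) likewise ended in 4 of 6 cases and with the offset. Eif5a2 (chromosome 3, 28781276 to 28798846) had 9.92, 10.1 and 11.8 cpm against 12.6, 15.2 and 11.5 cpm, with overlapping groups and the same size of difference (-0.30, SE 0.13, edgeR adjusted p = 0.0793).

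Of 8 factors of scanning and ribosome recycling, 5 were called lower and none higher (median -0.26), against 21% and 21.1% of all tested genes. They were Dhx29, a helicase for structured leaders (-0.70, SE 0.08), Bzw2 and Bzw1, which mimic eIF5 (-0.66, SE 0.08, and -0.27, SE 0.09), Abce1, which splits ribosomes (-0.27, SE 0.08), and Ddx3x, a helicase (-0.26, SE 0.08). Without METTL7A1 replicate 2, mock replicate 1 or mock replicate 2, and with the neighbour offset, the number called lower was 2. Of all tested genes 13.5% were called lower with the offset. Mcts2 was also called, as higher, with RLE or upper quartile scaling. Among elongation and termination factors, 10 were tested and 1 was called, against 42.1% of all tested genes. It was Eef2k, the kinase that inhibits elongation factor 2 (-0.37, SE 0.11). The median of that list was -0.11. None was called without mock replicate 2, and 2 were called without mock replicate 3, with upper quartile scaling and with the neighbour offset. The 2 called with the offset were the termination factors Etf1 and Gspt1 and not Eef2k (edgeR adjusted p = 0.104).

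The log2 fold change of an initiation factor and the median of its 40 neighbours had the same sign for 38 of the 48 genes and for 27 of the 31 that were called. The share of all tested genes with the same sign as their neighbours was not counted. Across the 48 genes, which are not independent and come from the same libraries, Pearson's r was 0.63 and Spearman's rho 0.54. Over all 13166 tested genes, which were not matched to the 48 in abundance, Pearson's r was 0.31. With the neighbour offset 3 were called higher and 14 lower, against 18% and 13.5% of all tested genes. Of the 31 calls 14 were kept, and Eif2b5, Eif3j1 and Eif3j2 were newly called as lower. Eif4ebp1 (1.01), Eif2s2 (0.37) and Eif1 (0.30) were still higher. The calls of Eif2b1 (-0.43), Eif2b3 (-0.26) and Eif2b4 (-0.40), of Eif3b (-0.33), Eif3f (-0.40) and Eif3l (-0.66) and of Eif2a (-0.37) also stood.

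**Figure D3:**
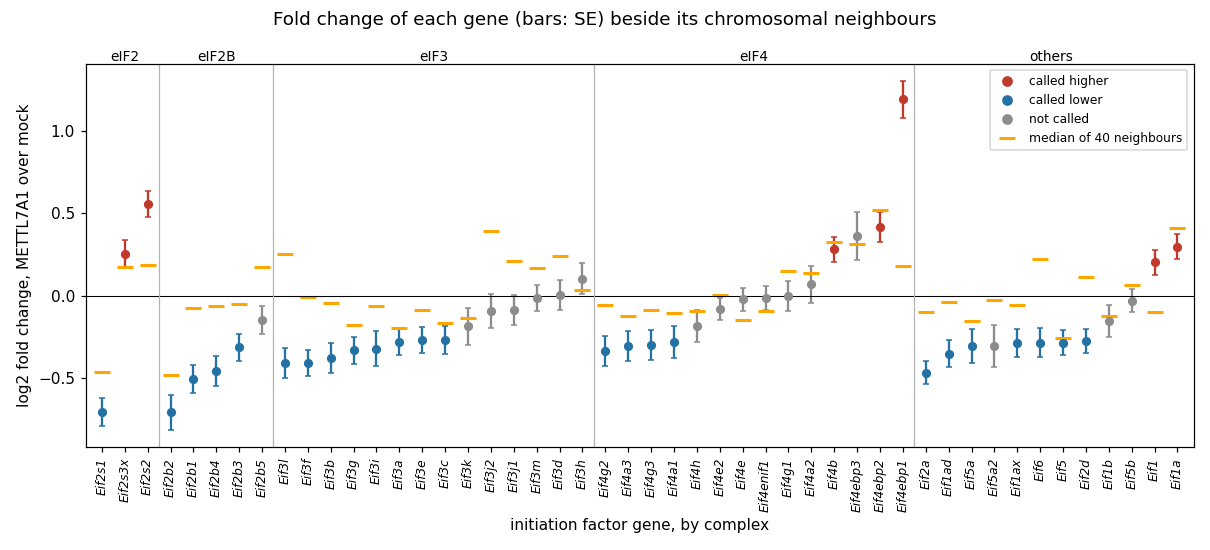
Log2 fold change of METTL7A1 over mock (points, with SE as bars) for 48 initiation factor genes, coloured by call, with the median of the 40 nearest neighbours as an orange dash. Eif2s1, Eif2b2, Eif4b and Eif4ebp2 moved in the direction of their neighbours, while Eif3l and Eif6 fell where the neighbours rose by 0.25 and 0.22.

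Levels were compared between genes as cpm per kilobase of exon, on which scale the subunits of one complex were far from equal. The exon length is the one listed for the gene (2514 bases for Eif3f, 10117 for Eif4g3) and need not be that of the transcripts present. Of the 31-base stretches of Eif2s3x, matched on either strand, 35.6% also occur in other genes. Of those of Eif3d 40.2% do, 39.6% in Gm17638, which overlaps Eif3d on the opposite strand and would not share its reads if counting used strand. The exon length and shared stretches can shift an order between genes, and their part was not tested. Within eIF3 in mock cells Eif3a was highest (200 ± 6.60), followed by Eif3l (186 ± 17.8), whose difference from Eif3a was within the SD, and by Eif3e (151 ± 13.4) and Eif3b (121 ± 10.5). Eif3g, Eif3i, Eif3m, Eif3d, Eif3c and Eif3h lay between 77.7 and 95.4 with SDs of 6.96 to 11.5, so that their order is not resolved. Eif3k (42.3 ± 6.51) and Eif3f (30.6 ± 1.57) were lower. Among the eIF4 genes Eif4a1 (494 ± 42.7) exceeded Eif4a2 (237 ± 10.9) and Eif4g1 (176 ± 13.9), and Eif4e was at 30.1 ± 1.84 (SD, n = 3 throughout). eIF2 changed its order: Eif2s1, Eif2s2 and Eif2s3x were at 65.7 ± 5.24, 51.1 ± 4.06 and 36.3 ± 2.79 in mock, whereas in METTL7A1 cells Eif2s2 (75.2 ± 4.22) was highest and Eif2s1 (40.3 ± 3.15) and Eif2s3x (43.3 ± 3.67) did not differ beyond their SDs. eIF2B transcripts were scarcer than those of eIF2, from 7.44 ± 0.255 (Eif2b3) to 30.3 ± 3.36 (Eif2b5) in mock.

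**Figure D4:**
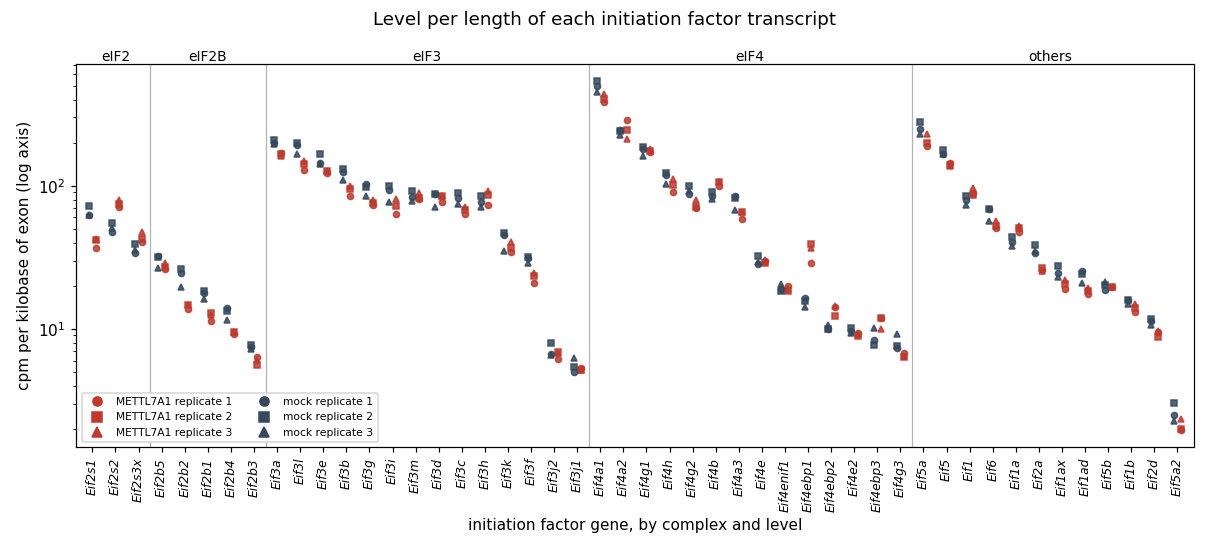
Level of 48 initiation factor genes in cpm per kilobase of exon (log axis) in each mock (dark) and METTL7A1 (red) library, grouped by complex and ordered by the mock mean. Differences between subunits, such as 494 for Eif4a1 against 8.04 for Eif4g3 in mock, were larger than those between the groups.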

How the data were processed

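RNA of 6 libraries was ribosome-depleted and sequenced with a stranded Illumina kit. The authors trimmed reads with BBDuk, aligned read pairs to mm10 with STAR 2.5.3a and ran featureCounts. The deposited values are raw counts for each gene, listed with its exon length. Counting appears to have used strand, since AY036118, which lies within Gm42418 on the opposite strand, exceeded Gm42418 in the counts of each library. Opposite-strand neighbours such as Serp1 (Eif2a) and Rev1 (Eif5b) would then not share reads.

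The analysis used edgeR 4.0.16 in R 4.3.3: at least 1 cpm in at least 3 libraries (the filter of the study), TMM scaling, quasi-likelihood test without covariate, and Benjamini-Hochberg adjustment over 13166 genes. A gene was called at an adjusted p under 0.05. Abundance is in cpm after TMM scaling (mean ± SD), and the SE is the log2 fold change divided by the square root of F. The test was tried on simulated data first. Values per library are given for called genes with a log2 fold change of at least 0.4, for the factors the study immunoprecipitated or followed over gradients, and for paralog pairs. The other genes are given by fold change. The 31-base comparison used GENCODE M21 transcripts. Members, gene lists and the neighbour offset were chosen with earlier results of these data known. Pathway lists were described by counts and medians, with no test of a list, and a marker gene is not reported here.

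Alternatives were RLE and upper quartile scaling, other filters, removal of the 20 most abundant genes, a replicate block, omission of each library, DESeq2 1.42.0, voom of limma 3.58.1 and the neighbour offset.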

Additional observations from a re-analysis of the deposited data

How the results depend on the processing

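The 7 higher and 24 lower initiation factors stayed within 1.5 times under both other scalings, both other filters, DESeq2, voom and removal of the 20 most abundant genes. With the neighbour offset 3 were higher, 14 lower and the median log2 fold change was -0.18; there Eif1a (-0.12), Eif4b (-0.045) and Eif4ebp2 (-0.10) turned negative, none of them called. Those genes lie among neighbours that rose as much, by the construction of the offset. Leaving out one library gave 4 to 7 higher and 11 to 27 lower; the cause was not tested. Of the 31 calls 9 stood in every alternative: Eif4ebp1, Eif2s2, Eif2b1, Eif2b4, Eif2a, Eif3b, Eif3f, Eif3l and Eif1ad. All 48 genes kept their sign under TMM, RLE and upper quartile scaling. The log2 fold change of Mettl7a1 lay between 7.91 and 8.32. The main fit did not pair libraries by replicate number. Deviations of same-numbered libraries from their group means correlated at -0.16, 0.23 and -0.39, and 1 of 3 METTL7A1 libraries correlated best with its own number. With 3 libraries per group these values cannot show whether the cultures were handled in pairs. With replicate number as a block, 6 were called higher and 19 lower, and Mettl7a1 was at 8.17. Genes under the filter could not be compared at this depth.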
